A study of Mus musculus with 2 samples.

Results

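Known transcript models annotated at 5 kb or longer were described in mouse cortex tissue, as far as long reads had been assigned to them. The members were the models of the GENCODE M21 annotation with at least 2 exons and a length of at least 5000 bases that held 1 or more reads in either library. There were 1567 of them among 22253 known multi-exon models with a read, in 1429 of 12278 genes. The length by which they were chosen was that of the annotated model. It was not a read length, so the name "5 kb or longer" describes the annotation and not the molecules that were read.

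The series measured transcripts by long-read RNA sequencing of total RNA, in which 1 read can follow a transcript through many exons. It held 1 group of 2 libraries, given as biological replicates 1 and 2: left cerebral cortex of adult mice aged 6 months, strain B6NCrl in 1 field and C57BL/6 in another, with no treatment or genotype contrast. The donor record was the same for both tissue samples, and separate animals were not stated, so differences between the libraries may be technical. The tests below set these differences against counting error only and hold no estimate of the spread between replicates. One field called the mice male and another gave the sex as not collected, while Kdm5d, Uty, Eif2s3y and Ddx3y on the Y chromosome had 0 reads in both libraries.

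Replicate 1 held 1306424 reads and replicate 2 held 1304133 reads, and 1 read stood for 0.765 and 0.767 CPM (counts scaled to a total of 1000000 reads). Markers of the labelled tissue were present, with 5421 and 5131 reads on 4 neuronal genes and 5275 and 4895 reads on 3 oligodendrocyte genes in replicates 1 and 2. Choroid plexus markers of the neighbouring tissue had 74 and 49 reads. Intervals for single libraries are exact Clopper-Pearson intervals at 95% and cover counting error only. Reads were not independent molecules where PCR copied them.

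A messenger RNA carries a 5′ untranslated region (UTR), a coding part and a 3′ UTR, and it ends where the cleavage and polyadenylation machinery cuts the precursor. That machinery recognises a hexamer, most often AATAAA or ATTAAA, a short way before the cut. Many genes have several such sites in the last exon, so the same intron chain can carry a short or a long 3′ UTR, and neurons are known for long ones. A long-read classifier assigns a read to a known model when its chain of introns matches, and where the read starts and stops inside the outer exons does not enter that match. A read that holds only a contiguous part of an annotated chain is placed on an incomplete splice match (ISM) model: a suffix model lacks introns at the 5′ end and a prefix model lacks introns at the 3′ end.

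The sequences that bear most on the members lie in their last exons. For abundant members, the 30 bases before the most frequent 3′ end of spliced read-derived models far upstream of the annotated end are shown, with the hexamer in capitals. The 6 were picked because they hold a hexamer, after their values were seen, and the most frequent upstream ends of Rab11b-201, Rgs7bp-201, Sap18-204, Timm17a-201, Sod2-201, Mapt-204, Tmod2-202 and Mrpl17-202 hold none in these 30 bases. All sequences are from the GENCODE M21 transcripts on build mm10. All lie in the last exon of the named member, in the part annotated as 3′ UTR.
Cdc37-201, chr9:21139428-21139457, minus strand: gtccAATAAAcagttccaggtgctggaggc
Glo1-206, chr17:30592867-30592896, minus strand: aggctgaAATAAAgctaacactgtttagta
Emc7-201, chr2:112467404-112467433, plus strand: tacattatgtatATTAAAgaaatcttaatc
Sdf4-201, chr4:156010181-156010210, plus strand: aggtttATTAAAgatatgcttaataggcta
Ntrk2-202, chr13:58932413-58932442, plus strand: aattgcttctgtttATTAAAggtgatttgc
Ppp2ca-201, chr11:52122705-52122734, plus strand: ggtaaagaaaAATAAAgatcaaggccactg
The annotated ends of the first 3 are shown for comparison, with the hexamer again in capitals.
Cdc37-201, chr9:21133222-21133251, minus strand: taagccccaAATAAActtgccttctgtgaa
Glo1-206, chr17:30584936-30584965, minus strand: tcaattttatAATAAAatctattctccaaa
Emc7-201, chr2:112472133-112472162, plus strand: gtgaatataaAATAAAactgaatataattt
At other upstream ends the genome goes on with a stretch rich in A, shown as the 20 bases after the end with every A in capitals. These 2 were chosen after their values were seen.
Mapre1-201, chr2:153768355-153768374, plus strand: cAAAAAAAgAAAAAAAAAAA
Rgs7bp-201, chr13:104951231-104951250, minus strand: AAAgAAAgAAAgAAAggAAg

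The members held 19579 reads in replicate 1 and 15968 in replicate 2. That was 2.51% and 2.30% of the reads on known multi-exon models (mean 2.41% ± 0.153, SD, n = 2). Most members were rare: 418 had 1 read over both libraries, 531 had at least 10 and 76 had at least 100. A total of 954 were seen in both libraries, 401 in replicate 1 only and 212 in replicate 2 only. The 15 most abundant held 21.9% of all member reads and the 100 most abundant held 57.3%. Of the 1567 members, 1502 were protein coding, 32 were retained-intron transcripts, 11 were long intergenic noncoding RNAs and 11 were predicted targets of nonsense-mediated decay.

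The 15 most abundant members are given by role. Rps15a-204, a model of a protein of the small ribosomal subunit, led with 767 reads in replicate 1 and 790 in replicate 2. Its mean level was 596 ± 13.2 CPM (SD, n = 2). Models of 3 mitochondrial proteins were among the 15. Timm17a-201, of the translocase that imports proteins through the inner mitochondrial membrane, had 192 and 231 reads. Sod2-201, the mitochondrial superoxide dismutase, had 190 and 186. Mrpl17-202, of the mitochondrial ribosome, had 188 and 149. None of these 4 was called between the libraries in the test described below.

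Rab11b-201, a GTPase of recycling endosomes, had 462 and 385 reads and ranked behind Rps15a-204 alone, and Rab18-205, a GTPase of the endoplasmic reticulum and lipid droplets, had 202 and 226. Cdc37-201, a cochaperone that brings kinases to Hsp90, had 241 and 208 reads. Emc7-201, a subunit of the complex that inserts membrane proteins in the endoplasmic reticulum, had 222 in each library. Sdf4-201, a calcium-binding protein of the Golgi lumen, had 158 and 186. Glo1-206, which detoxifies methylglyoxal, had 306 and 361 reads, and Sap18-204, of a histone deacetylase complex, had 206 and 221.

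The neuronal members among the 15 were the models of a membrane anchor, an actin-capping protein and tau. Rgs7bp-201, which holds a family of G protein regulators at the membrane, had 265 reads in replicate 1 and 180 in replicate 2. Tmod2-202, the neuronal tropomodulin that caps slow-growing actin filament ends, had 204 and 139, and Mapt-204, the microtubule-binding protein tau, had 200 and 152. All 3 had fewer reads in replicate 2, and none reached the size limit for a call. Hdhd2-203 completed the list with 165 and 184 reads.

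**Figure D1:**
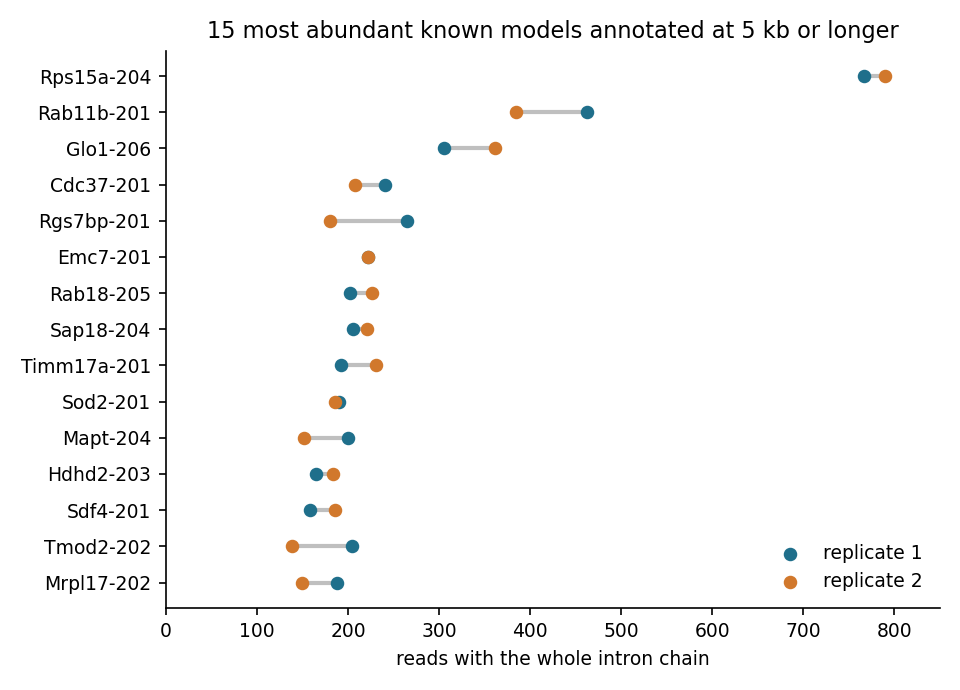
Reads that held the whole intron chain (x axis) for the 15 most abundant known models annotated at 5 kb or longer (y axis), 1 point per library, with a grey line joining the libraries. Rps15a-204 stands at 767 and 790 reads, and the remaining 14 lie between 139 and 462.

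The length of these models came mostly from the last exon. The members had a median annotated length of 6112 bases, from 5000 to 123179, and a median of 11 exons. Their median last exon was 4344 bases, their median 3′ UTR 3858 bases and their median coding part 1890 bases, against 702, 372 and 714 bases in the other known multi-exon models. The 3′ UTR made up at least 50% of the length in 1081 members, which held 89.2% of member reads. The coding part did so in 328 members, which held 4.73% of the reads. Weighted by reads, the median 3′ UTR was 4728 bases in both libraries, which is the value of Rps15a-204, the member with most reads.

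Rps15a-204 shows the pattern on chromosome 7 (118104372 to 118116188, minus strand). It was annotated at 5179 bases with 5 exons, of which 393 bases were coding and 4728 were 3′ UTR. Its outer junctions lay 304 exonic bases apart, and a read crossing these 304 bases was enough for it to be placed on this model. Glo1-206, on chromosome 17 (30584936 to 30612659, minus strand), was annotated at 9865 bases with a coding part of 555 bases and a 3′ UTR of 9202. Its outer junctions were 382 bases apart.

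The exonic distance between the outer junctions, called the span here, is the least a read must cover to hold the whole chain. Over the members it had a median of 1357 bases and ranged from 0 in models with 1 intron to 7386. Weighted by reads it was 755 bases in replicate 1 and 752 in replicate 2, whereas the read-weighted annotated length was 6193 and 6091 bases. Members with a span under 1000 bases numbered 587 and held 64.2% of member reads. Only 37 members had a span of at least 5000 bases, with 29 reads in replicate 1 and 23 in replicate 2, or 0.146% of member reads. The intron chain was shared with an annotated transcript under 5 kb in 13 members, which held 361 reads.

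**Figure D2:**
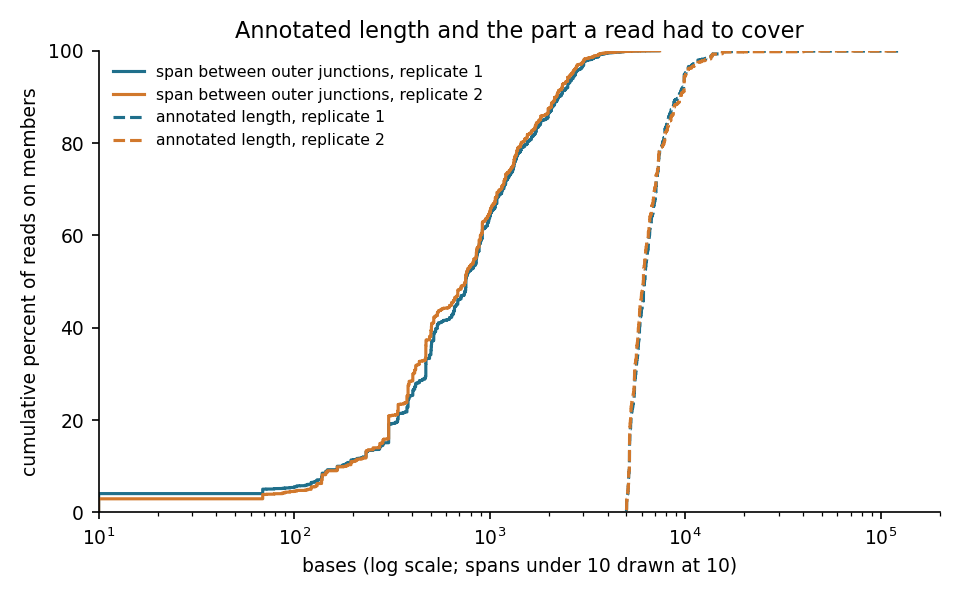
Cumulative percent of member reads (y axis) by the span between the outer junctions (solid lines) and by annotated length (dashed lines) in bases on a log scale (x axis), 1 colour per library. The read-weighted medians lie at 755 and 752 bases for the span and at 6193 and 6091 bases for the annotated length.

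Models on both sides of the limit of 5000 bases were similar in number and span, with fewer reads above it. The 115 known models up to 100 bases below it held 1674 reads in replicate 1 and 1364 in replicate 2, with a median span of 1263 bases. The 107 members less than 100 bases above it held 1061 and 870 reads, with a median span of 1203 bases.

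The longest annotated members had few reads, over spans far below their annotated lengths. D10Wsu102e-201, annotated at 123179 bases of which 122583 were 3′ UTR, had 15 reads in replicate 1 and 11 in replicate 2 over a span of 224 bases. D1Ertd622e-201, at 40378 bases, had 9 and 23 reads over a span of 90 bases. Hnrnpr-207, a model of an RNA-binding protein, was annotated at 21452 bases and had 6 and 5 reads over a span of 1301 bases. Ntrk3-201, the receptor of neurotrophin-3, was annotated at 19703 bases and had 4 and 3 over a span of 2044. Strbp-201, an RNA-binding protein annotated at 16348 bases, had 1 read in each library over a span of 1939.

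The members with the widest spans needed reads of several kilobases. Among members with at least 5 reads in each library, Cltc-202, the clathrin heavy chain, had the widest span at 4861 bases across 32 exons. It had 7 reads in each library. Rab3gap2-201, of the complex that activates Rab18 and acts on Rab3, spanned 3902 bases and had 8 and 5 reads. Atp2b2-203 and Atp2b2-201, models of a plasma membrane calcium pump, spanned 3741 and 3600 bases, with 12 and 6 reads and with 28 and 20 reads. Cyfip2-202 and Cyfip1-201, of the complex that drives branched actin growth, spanned 3617 and 3598 bases. Cyfip2-202 had 45 and 15 reads, and Cyfip1-201 had 10 and 9. Ube4b-202, a ubiquitin ligase, Cand1-201, an exchange factor of cullin ligases, Tecpr1-201, an autophagy protein, and Atp8a1-201, a phospholipid flippase, spanned 3348 to 3436 bases and had between 5 and 20 reads in a library.

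Incomplete models took a large share of the reads of the members' genes. ISM reads made up 42.9% (42.5 to 43.4) of ISM plus known multi-exon reads in replicate 1 and 50.9% (50.5 to 51.4) in replicate 2 in the 1429 genes with a member. In the other 10849 genes the values were 15.1% and 18.5%. The difference was 27.8 percentage points in replicate 1 and 32.4 in replicate 2 (mean 30.1 ± 3.22, SD, n = 2), larger than the spread between the libraries. With 2 libraries of 1 group no permutation test was possible. The median over single genes was 37.2% and 45.4% for genes with a member against 11.8% and 15.4% for the others. An ISM read was present in 1227 of the 1429 genes, and members held 73.7% of the known multi-exon reads of their genes in each library.

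The ISM percent varied with the annotated length of the gene's most abundant known model, being lowest under 1 kb, highest from 6 to 8 kb and lower again beyond. It was 6.96% ± 0.478 (SD, n = 2) where that model was under 1 kb and 12.4% ± 2.06 at 1 to 2 kb. It was 24.3% ± 4.43 at 2 to 3 kb, 43.1% ± 5.20 at 5 to 6 kb, 52.1% ± 7.55 at 6 to 8 kb and 40.3% ± 4.17 from 8 kb on. At 3 to 4 kb it was 35.2% ± 4.71 and at 4 to 5 kb 32.8% ± 4.21. That step was a small fall in each library, from 31.9% to 29.8% in replicate 1 and from 38.5% to 35.8% in replicate 2. Models classed as genomic, which overlap a gene without matching its annotated splicing and were mostly unspliced, held another 28.3% and 35.7% of the reads of genes with a member, against 6.16% and 8.42% in the other genes.

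The missing end differed from that in other genes. Prefix models held 44.9% of the ISM reads of the members' genes in replicate 1 and 34.5% in replicate 2, against 27.1% and 22.5% in the other genes. Suffix models held 38.2% and 41.1%, against 49.8% and 50.6%. Some ISM models had no intron, and these held 13.5% and 20.1% of the ISM reads, against 19.8% and 24.1%. Of suffix plus prefix reads alone, suffix models held 46.0% and 54.3%, against 64.8% and 69.2%. The prefix percent of the members' genes was above that of the other genes in both libraries, though it differed between the libraries by more than 10 percentage points. All these shares are of pooled reads, in which genes with many ISM reads weigh most.

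Next, each member was set against the spliced ISM models whose introns were a contiguous part of its own chain. The complete percent, the reads on the member over these plus the reads on such parts, was 57.9% in replicate 1 and 51.5% in replicate 2 (mean 54.7% ± 4.51, SD, n = 2). It was 88.6% and 86.3% in the other known multi-exon models. Models with a single intron can have no spliced part, so their reads all counted as complete in both sets. Parts that lacked introns only at the 5′ end held 42.6% and 49.0% of the part reads, and parts that lacked them only at the 3′ end held 51.1% and 42.2%. These shares are pooled over members, and a few members weighed heavily. Part reads that lacked only the 3′ end numbered 7284 and 6352, of which Kif5c-201 held 716 and 864 and Kif5b-201 held 581 and 527. The shares without these members were not computed. The median part read lay on a model of 1481 bases in both libraries. Parts that lacked only the 5′ end had lost a median of 10 introns in replicate 1 and 9 in replicate 2.

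Complete reads became rare as the span grew. Among members with a span under 500 bases 94.5% ± 1.29 of the reads were complete (SD, n = 2), near the 95.6% ± 0.558 of the other models. This class holds all models with a single intron, which counted as complete by definition, so both values were in part fixed beforehand. From 500 to under 1000 bases the complete percent was 77.2% ± 5.08 against 86.4% ± 2.39. From 1000 to under 2000 bases the members had 52.6% ± 3.65 against 73.2% ± 3.60, and from 2000 to under 3000 bases 23.9% ± 3.79 against 36.9% ± 5.15. From 3000 bases on they had 12.7% ± 4.09 against 18.0% ± 4.14.

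The members were below the shorter models in every span class and both libraries. The difference, members minus others, was largest from 1000 to under 2000 bases, at -20.5 percentage points in replicate 1 and -20.6 in replicate 2. It was smallest under 500 bases, the class that holds the models with a single intron, at -0.568 and -1.61. Within a class the members' spans were somewhat longer: the read-weighted median from 1000 to under 2000 bases was 1330 bases for the members and 1271 for the others, with 12 and 11 exons. Parts shared with other isoforms were also counted for the member. Tcf25-203, with a span of 1607 bases, added 371 and 306 part reads to the 8041 and 7265 complete plus part reads of this class. None of them was on a part of its own. The differences were not computed with parts of no other known model only. The part of span and of shared parts in the difference was not tested.

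**Figure D3:**
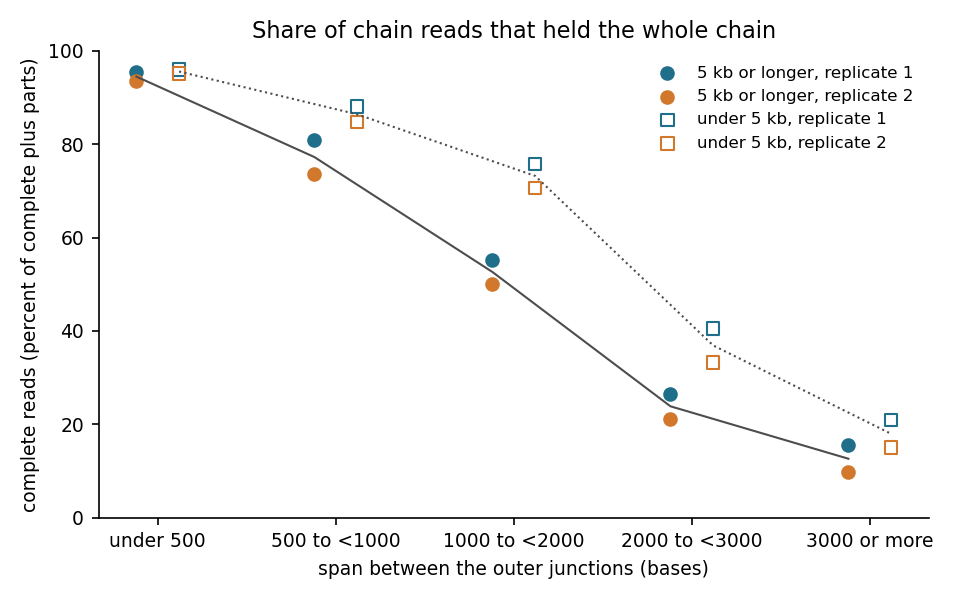
Complete reads as a percent of complete plus part reads (y axis) in 5 classes of span between the outer junctions in bases (x axis), for known models of 5 kb or longer (filled circles) and under 5 kb (open squares), 1 point per library with a line through the means of the libraries. The members drop from 94.5% under 500 bases to 12.7% from 3000 bases on and lie below the shorter models in each class. Models with a single intron lie in the first class and count as complete by definition.

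Single members lay at both extremes. Of 323 members with at least 50 complete or part reads, 184 were complete in over 50% of them and 69 in under 10%. Lypd1-202, a membrane-anchored modulator of nicotinic receptors, had 118 complete reads in replicate 1 and 124 in replicate 2 and no part read over 3 exons and a span of 138 bases. Tug1-201, a long noncoding RNA, had 24 and 50, and Olfml3-201, a secreted matrix protein, had 30 and 25. Pcdhac2-201, a clustered protocadherin, had 29 and 25, and Lurap1-201 had 23 and 27. Bases 3029 to 5888 of Pcdhac2-201, all after its first exon, were identical to sequence of Pcdha1 and shared with other overlapping genes. Reads that lacked its first junction could therefore belong to any of these genes, which limits what its lack of part reads shows. Tug1-201 and Lurap1-201 had 2 exons each, for which no spliced part can exist.

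The 3 heavy chains of kinesin-1, the motor that carries cargo along axonal microtubules, were among the members with most part reads. Kif5c-201 had 4 complete reads in each library beside 749 and 926 reads on its parts, so 0.475% of the reads were complete. Of these part reads 716 and 864 lacked only the 3′ end. Kif5b-201 had 7 and 25 complete reads beside 643 and 610 on parts, of which 581 and 527 lacked only the 3′ end. Kif5a-201 had 52 and 23 complete reads beside 314 and 172 on parts, of which 248 and 119 lacked only the 3′ end. In all 3 genes most part reads therefore kept the 5′ introns, and no other known model with a read shared these parts.

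In other members with many parts, the end that was missing could be counted as well. Sf3b1-201, a core protein of the spliceosome, had 1 complete read in each library and 138 and 185 part reads, of which 118 and 158 lacked only the 3′ end. Ncl-201, nucleolin, had 28 and 9 complete reads and 184 and 183 part reads, of which 154 and 135 lacked only the 3′ end. Matr3-201, matrin 3 of the nuclear matrix, had 70 and 65 complete reads and 115 and 256 part reads, of which 92 and 132 lacked only the 3′ end. Gria2-201, an AMPA receptor subunit, had 62 and 48 complete reads, and 76 of 138 and 97 of 157 part reads lacked only the 3′ end. Rabep1-201, an effector of early endosomes, had 2 and 1 complete reads and 165 and 142 part reads, of which 145 and 102 lacked only the 3′ end. Reads on parts of no other known model with a read numbered 50 and 55 for Gria2-201 and 82 and 72 for Rabep1-201. They numbered 89 and 129 for Matr3-201, 128 and 173 for Sf3b1-201 and 175 and 171 for Ncl-201. The remaining part reads could have come from another isoform.

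For some members the parts could equally have come from another isoform. App-206, the amyloid precursor protein, had 8 and 3 complete reads and 163 and 220 part reads, of which 155 and 208 lacked only the 5′ end. Just 1 of these reads in each library was on a part of no other known model with a read. Tcf25-203, a transcription factor, had 1 and 0 complete reads and 371 and 306 part reads, and Phactr1-205, a regulator of actin and protein phosphatase 1, had 0 and 1 beside 72 and 116. Neither had a part of its own. By contrast, Eif3a-201, the largest subunit of an initiation factor, had 0 and 1 complete reads beside 105 and 105 part reads, of which 100 and 105 were on parts of no other known model with a read. 2610507B11Rik-201 had 1 and 0 beside 111 and 80 over a span of 6457 bases, all on parts of its own.

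Few read-derived models were themselves 5 kb long. Among the spliced models added from reads in the members' genes, those of at least 5000 bases held 1.29% of the reads in replicate 1 and 1.02% in replicate 2, on 210 and 157 models. The read-weighted median length of the spliced added models was 1544 and 1527 bases, and the longest were 8025 and 7235 bases.

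The 3′ ends of read-derived models could be set against the annotated end in 1199 members with a last exon of at least 3000 bases, which held 91.3% of member reads. Single reads carry no end position in these data. The ends of spliced added models that held the member's last junction were used, and all reads of a model were counted at its end. Models that ended within 100 bases of the member's annotated end held only 1.98% of the reads in replicate 1 and 2.54% in replicate 2. They made up 2.69% and 3.01% of the models. Models that ended more than 1000 bases upstream held 96.8% and 96.5% of the reads. The median end was 3795 and 3857 bases upstream, after 839 and 826 bases of the last exon. Ends within 100 bases of any annotated end behind the same junction made up 51.5% and 51.4%, so many matched the end of a shorter annotated transcript.

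Unspliced models lying wholly inside the same last exons had another distribution. Models that ended within 100 bases of the annotated end held 53.8% of their reads in replicate 1 and 54.2% in replicate 2. They made up 38.2% and 36.4% of the models. Models that ended more than 1000 bases upstream held 36.7% and 37.0% of the reads. Their median length was 1756 and 1696 bases. Among added models, the annotated ends were reached mostly by unspliced ones. Where single reads ended was not measured, on added or on known models.

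**Figure D4:**
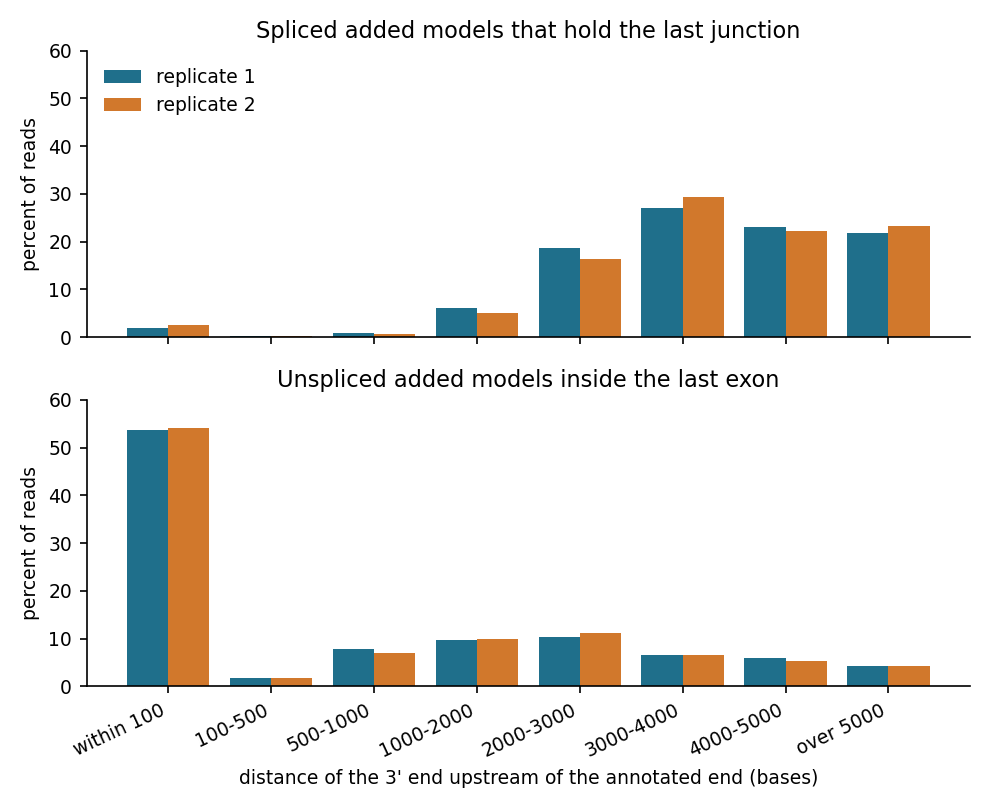
Percent of reads (y axis) by the distance in bases of the model's 3′ end upstream of the member's annotated end (x axis), for spliced added models with the member's last junction (top) and unspliced added models inside its last exon (bottom), 1 colour per library. Each read was counted at the end of its model. At most 2.54% of the spliced reads lie within 100 bases of the annotated end, against 53.8% and 54.2% of the unspliced reads.

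Named members differed in whether unspliced models reached the annotated end. Reads are again counted at the end of their model. Mapt-204 had 97 and 100 spliced added reads with the last junction, of which none ended within 100 bases of the annotated end. The most frequent end, with 93 and 99 reads, lay 3871 bases upstream, after 248 bases of the last exon, and 12 of 44 and 29 of 77 unspliced reads ended at the annotated end. Ntrk2-202, a model of the BDNF receptor gene, had 79 and 68 such reads at an end 4585 bases upstream. It also had 36 and 33 unspliced reads, of which 25 and 20 ended at the annotated end. Cdc37-201 had 32 and 27 reads at an end 6206 bases upstream, after 536 bases of the last exon, and none of its 5 and 13 unspliced reads ended at the annotated end. Slc1a2-202, the main astrocyte glutamate transporter, had 6 and 13 spliced reads, none at the annotated end, and 524 and 695 unspliced reads, of which 168 and 239 ended there.

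The bases around the upstream ends were searched on the transcript strand for AATAAA and ATTAAA in the 40 bases before the end. A hexamer was present at 34.6% of the upstream spliced models in replicate 1 and 33.0% in replicate 2. It was present in 4.16% of all windows of the same length in these last exons and before 82.7% of the 1199 annotated ends. A window of 20 bases after the end with at least 12 A was present at 32.0% and 29.6% of the upstream models, against 1.60% of all windows in the same exons. The categories hardly overlapped. Models with a hexamer and no such A-rich window made up 32.2% and 31.4%, models with an A-rich window and no hexamer 29.6% and 28.0%, models with both 2.41% and 1.62%, and models with neither 35.8% and 39.0%. These are matches of letters, and they do not show a used site.

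The sequences printed above give examples of ends with a hexamer and of ends with an A-rich window. The ends of Cdc37-201, Glo1-206 and Emc7-201 had 32 and 27, 11 and 4, and 21 and 18 reads in replicates 1 and 2. The end of Ppp2ca-201, a catalytic subunit of protein phosphatase 2A, had 59 and 43, and it lay 5044 bases upstream. The A-rich windows of Mapre1-201, a protein of microtubule plus ends, and Rgs7bp-201 held 18 and 14 A, and their ends had 9 and 9, and 41 and 23 reads.

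Brain genes were also grouped by role in 10 lists, and the genes with a member were counted among those with a known multi-exon read. Over all such genes the share was 11.6% (1429 of 12278). Transporters and pumps had a member in 13 of 28 genes, with 389 reads in replicate 1 and 228 in replicate 2. Kinases, phosphatases and GTPase regulators had one in 12 of 33, with 425 and 341 reads, and ion channels and receptors in 13 of 26, with 317 and 207. RNA-binding proteins had one in 13 of 28, with 148 and 36. Synaptic scaffolds had one in 3 of 14 genes, with 6 and 2 reads, and the median span of these members was 3276 bases. The lists were chosen with results known, so these shares are a description only.

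Among receptors, transporters and kinases, several models had between 27 and 106 reads with the whole intron chain in a library. Gabrb1-201, a GABA-A receptor subunit annotated at 13737 bases with a span of 1000, had 71 and 66 reads, and Gria3-201, an AMPA receptor subunit, had 32 and 28. Slc38a1-201, a glutamine transporter, had 73 and 59, and Slc1a2-202 had 72 and 45. Mapk10-203 and Mapk10-212, models of the neuronal kinase JNK3, had 49 and 50 and 27 and 33. Ntrk2-202 had 102 and 106.

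The members of the scaffold, adhesion and glial groups held fewer reads in sum, with 6 and 2, 84 and 46, and 57 and 70 in replicates 1 and 2. Single models were not all lower: Aqp4-201 and, in replicate 1, Cadm3-202 (given below) lay within the range of the models above. Dlgap1-211, a postsynaptic scaffold, had 3 and 2 reads, Ank2-201, an ankyrin, had 2 and 0, and Ppfia2-203, of the presynaptic active zone, had 1 and 0. Cntn1-204, an adhesion protein, had 16 and 19, Pcdh17-201, a protocadherin, had 4 and 11, and Pcdhgc5-202 had 7 and 4. Aqp4-201, the astrocyte water channel, had 49 and 64. Ptprz1-206, a receptor phosphatase of glia, had 7 and 3, Ncan-201, neurocan of the brain matrix, had 1 in each, and Lamb1-201, a laminin chain, had 0 and 1. In the glial group 5 of 20 genes with a known multi-exon read had a member.

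The chromatin, RNA-binding and ubiquitin groups had few abundant members. Nedd4-201, a ubiquitin ligase, had 181 and 120 reads over a span of 2504 bases, Ube3a-203, the ligase lost in Angelman syndrome, had 3 and 5, and Ube3c-201 had 3 and 4. Mef2a-208, a transcription factor of activity-dependent genes, had 13 and 20, and Ddx6-203, a helicase of processing bodies, had 8 and 4. Elavl3-201, a neuronal RNA-binding protein, had 8 and 9, Qk-201, a splicing regulator of glia, had 6 and 5, and Ago2-201, the slicer of RNA interference, had 7 and 0.

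The libraries were then compared, which asks how well the count of a member holds between them. Of the 531 members with at least 10 reads in total, 63 were lower in replicate 2, or 11.9%, and 8 were higher, or 1.51% (exact binomial test against the library totals, Benjamini-Hochberg adjusted p under 0.05 over all 15759 models and a log2 ratio beyond 1 in size). Of all models tested, 7.5% were lower and 1.47% were higher, and of the 8252 known multi-exon models under 5 kb, 9.43% and 0.848%. The median log2 ratio was -0.24 over the members, -0.10 over the shorter known models and -0.02 over all models. Whether the members differ from the shorter models in this was not tested. Across the 531 transcripts, which share the libraries and are not replicates, log counts of the libraries correlated with r = 0.678 (Pearson) and rho = 0.628 (Spearman).

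**Figure D5:**
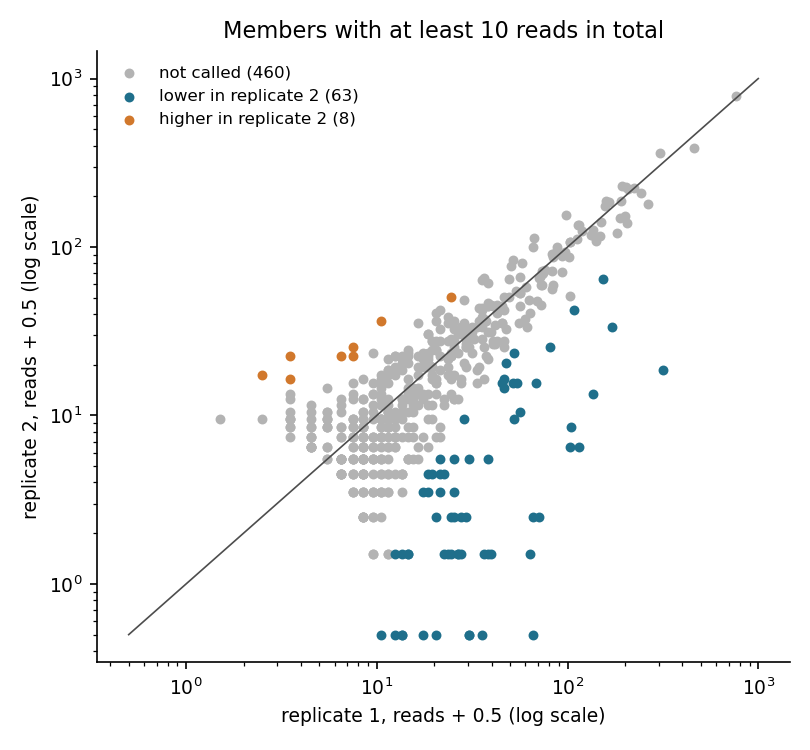
Reads plus 0.5 in replicate 1 (x axis) and replicate 2 (y axis), both on log scales, for the 531 members with at least 10 reads in total, with the line of equal counts. The 63 members called lower in replicate 2 lie below the line, down to 0 reads, and the 8 called higher lie above it.

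The members lower in replicate 2 included models with many reads in replicate 1. Ppp2ca-201, named after its values were seen, had 315 reads in replicate 1 against 18 in replicate 2, 17.5-fold fewer (10.9 to 29.9, exact interval) with an adjusted p of 1.4e-68 in the exact binomial test. Hnrnpu-201, a nuclear RNA-binding protein, had 104 and 8 reads, a log2 ratio of -3.62. Cacnb4-201, a calcium channel subunit, had 56 and 10, Cadm3-202, a synaptic adhesion protein, had 52 and 9, and Rnf165-201, a ubiquitin ligase, had 47 and 20. Satb1-208, a chromatin organiser, had 13 and 0.

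The largest ratios belonged to members without reads, or with 1 read, in replicate 2. Chst2-201, a sulfotransferase of carbohydrate chains, had 65 and 0 reads, at least 21.6-fold lower against a limit of 3 counts per library. Spred1-201, an inhibitor of Ras signalling, had 35 and 0, at least 11.6-fold lower. Cbx6-203, of a Polycomb complex, and Mmp17-201, a membrane-bound protease, each had 30 and 0, at least 9.98-fold lower. Btg1-201, an antiproliferative factor, had 63 and 1, a ratio of 62.9 with an exact interval of 10.9 to 2523. These are counts of reads with the whole intron chain and not of all reads of the genes. Unspliced added models inside the last exon held 215 reads in replicate 1 and 271 in replicate 2 for Chst2-201. They held 36 and 42 for Spred1-201, 24 and 52 for Cbx6-203, 31 and 30 for Mmp17-201, and 13 and 12 for Btg1-201. The last exon of Cbx6-203 overlaps another gene on the same strand.

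The 5 members with the largest ratios in the other direction had low counts. Pggt1b-205, a subunit of a prenyltransferase, had 2 and 17 reads, 8.51-fold more in replicate 2 (2.02 to 76.0). Vps37a-201, of the endosomal sorting machinery, had 3 and 22, 7.35-fold more (2.21 to 38.3). Gtpbp4-204, of ribosome assembly, had 3 and 16, Alcam-201, an adhesion protein, had 10 and 36, and Cxcl12-201, a chemokine, had 6 and 22.

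For the 63 members lower in replicate 2, the reads on their incomplete parts were less unequal between the libraries than the complete reads by which they were called. Their complete reads numbered 2985 in replicate 1 and 452 in replicate 2, whereas reads on their parts numbered 1557 and 1301. Those on parts that lacked only the 5′ end numbered 711 and 735. Ppp2ca-201 had 55 and 56 such reads beside its 315 and 18 complete ones. In the 460 members that were not called, complete reads numbered 14786 and 14077 and part reads 4948 and 5951.

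Sequence composition differed between the members lower in replicate 2 and those not called. The highest GC content in any 100 bases of the transcript had a median of 84.0% in the 63 members lower in replicate 2 and of 75.0% in the 460 that were not called. The median GC content of the first exon was 72.8% and 67.7%. In the 8 members higher in replicate 2 the 2 medians were 75.0% and 65.4%. The richest window was centred in the first exon in 57 of the 63 and in 385 of the 460. The part of GC content in the calls was not tested.

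Few members of the role groups could be tested, and the shares to set beside them are the 7.5% of all models and 11.9% of members called lower. Calls lower in replicate 2 were made in 2 of 9 tested members of the ion channels and receptors, 2 of 4 of the cytoskeleton and motors, 2 of 12 of the kinase group and 1 of 8 of the transporters. There was 1 such call among 4 tested adhesion members, 1 among 3 of the chromatin group, 1 among 3 RNA-binding members and 1 among 2 of the ubiquitin group, and none among 2 glial ones. Kif5b-201 was the only member of the 10 groups called higher, with 7 and 25 reads.

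The share of incomplete reads was compared gene by gene as well. Of 420 tested genes with a member, 47 had a higher ISM percent in replicate 2, or 11.2%, and 5 a lower one, or 1.19% (Fisher's exact test, Benjamini-Hochberg adjusted p under 0.05 over 4815 genes and a difference of at least 10 percentage points). Over all genes tested 8.33% were higher and 0.955% lower, so the share of calls among genes with a member was somewhat above that of all genes, a difference that was not tested. When ISM models without an intron were left out, which was decided after the values were seen, 19 genes with a member were called and not 52, and 18 of them were among the 52. In that setting 385 genes with a member were tested, of which 4.68% had a higher ISM percent in replicate 2, against 4.20% of all 4640 genes.

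The class given to unspliced models differed between the libraries in some of these genes, which were picked after their values were seen. Tppp, a microtubule protein of oligodendrocytes, had 45 and 42 known reads. It had 0 and 163 ISM reads, of which 159 in replicate 2 were unspliced, while genomic reads numbered 89 and 0. Spred1 had 0 and 36 unspliced ISM reads and 36 and 6 genomic ones. For Ppp2ca the call held without unspliced models: its ISM percent was 19.4% and 83.3% with them, and the adjusted p from Fisher's exact test was 9.37e-22 without them. App had 29.4% and 50.3%, with 686 and 353 known reads.

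Some counts are uncertain because other loci share sequence. Near copies outside their own locus, at 97% identity over at least 200 bases, were found for 6 of the 92 named members: Rps15a-204, Rab11b-201, Glo1-206, Sap18-204, Btg1-201 and D10Wsu102e-201. The matching stretch was 459 bases long in Rps15a-204 and 780 in Sap18-204. In 64 members the last exon overlapped an exon of another gene on the same strand and in 212 on the other strand, where unspliced reads may belong to either gene.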

How the data were processed

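The deposited tables hold counts, per the file headers: the number of reads placed on a model, per library and without normalization, beside the exon number and length of each model. TALON had classed the models against GENCODE M21 on mm10, per the deposited annotations; aligner and versions: not given in the sources used here. Members were taken by class, exon number and length, and lengths were checked against the annotation. Junctions came from the deposited annotations. The members, role lists, measures and named models were chosen with earlier results of these data known.

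Known models were matched between libraries by identifier and spliced added models by their introns. Unspliced added models, 14.9% and 19.9% of reads, could not be matched and stayed out of the binomial test, which had been planned for all models. Ratios had 0.5 counts added. Genes needed 20 ISM plus known reads in each library for Fisher's exact test. With 1 group, edgeR 4.0.16 and DESeq2 1.42.0 gave scaling factors only. Python 3.11.15 with scipy 1.17.1, R 4.3.3 and blastn 2.17.0 were used, and the tests were tested on simulated data. Named models were the 15 most abundant, the 5 longest, the 10 of widest span, the 10 with most part reads, the 5 most and 5 least complete, up to 5 called each way with the largest ratios, and up to 4 of each role list. The genome sequence was not used here, and some named models are not reported here. Alternatives changed the length limit, denominators, filters, scaling and libraries.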

Additional observations from a re-analysis of the deposited data

How the results depend on the processing

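The percent of known multi-exon reads on members was 7.07% with a limit of 4000 bases, 1.30% with 6000, 2.07% of all known reads and 1.36% of all reads, and 2.30% to 2.51% in single libraries. The ISM percent was 38.5% at 4000 bases and 28.3% of all reads of the gene (single libraries 42.9% to 50.9%), and its difference from other genes 23.3 and 13.8 percentage points (27.8 to 32.4). The suffix percent was 50.2% of suffix plus prefix reads (38.2% to 41.1%). The complete percent was 64.6% at 4000 bases, 61.0% with parts of no other read chain and 33.9% in members of at least 10 exons (51.5% to 57.9%). The median span was 1271 bases as the mean of both libraries, with each member that had a read in the library counted once (752 to 755 when weighted by reads). Over all members it was 1357 bases. The 52 genes called for ISM share became 28 with at least 50 reads in each library and 19 with spliced ISM models only. The 71 members called ranged from 49 to 81 over the other settings, with 72 under TMM and 70 under DESeq2 factors. The cause of these shifts was not tested, beyond the changed sets and denominators. The calls between libraries could not be made without either library. No paired analysis was possible because the labels give a single group. A single read stood for 0.765 or 0.767 CPM, which limits the 418 members with 1 read.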
